A study of Mus musculus with 6 samples.

Results

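Native TH2B in wild-type male germ cells gave 13368 enriched islands on the 19 autosomes, and 1373 of them (10.3%, 95% interval 9.76 to 10.8) shared at least 1 bp with an island of HA-tagged TH2B. Islands are broad stretches in which ChIP reads exceed input reads. The members were selected by their position in the called lists, so the overlap itself is a description of those lists and is not tested. Of the 1373 islands, 558 overlapped spermatocyte islands only (40.6%), 697 overlapped round spermatid islands only (50.8%) and 118 overlapped both (8.59%). They met 673 of 14956 autosomal spermatocyte islands (4.50%, 4.17 to 4.84) and 808 of 16447 autosomal round spermatid islands (4.91%, 4.59 to 5.25). The 3 lists held 46507 islands on all chromosomes.

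TH2B is a testis-specific variant of histone H2B. It appears in spermatocytes, the germ cells that go through meiosis, and takes the place of much of the somatic H2B there. It is kept in round spermatids, the haploid cells that follow meiosis, until most histones give way to transition proteins and then to protamines, which pack the DNA of the sperm head. The HA tag is a short peptide for which a well-characterized antibody exists, so tagged TH2B can be precipitated without an antibody to the histone itself.

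The tagged cells came from adult Th2b+/tag mice, in which 1 allele carries TH2B fused at its C-terminus to His, Flag and Ha tags and the other allele is unmodified. Anti-HA ChIP was made from gradient fractions of spermatocytes (meiotic) and of round spermatids (post-meiotic). Anti-TH2B ChIP was made from total germ cells of wild-type adult mice, a mixture of stages. The treatment of the pooled fractions is worded ambiguously in the labels and was read as pooling within each cell type. The comparison of native with tagged protein therefore differs in antibody, genotype and cell mixture together, and these cannot be told apart. Each group had 1 ChIP library and 1 input library (6 samples), so there was no replicate error and no test. All intervals are exact 95% intervals of counting error, and those on shares of islands treat islands as independent although islands cluster along chromosomes. No HA ChIP of untagged cells was among the samples, so folds were not shown to be specific for the tagged protein. Island lists hold no expression values, so the labelled cell types could not be checked by markers.

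Depth was known only inside the islands. Summed over the autosomal islands, spermatocytes had 2000483 ChIP and 1579106 input reads, round spermatids 2510450 and 1889588, and wild-type germ cells 1775998 and 1248693. Coordinates are of mm9 and counted from 1. No mm9 sequence or gene annotation was used here, so the regions are given by position and without gene names.

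Native islands that overlapped a tagged island had nearly the same median length, fold and input density as those that did not. The median overlapping island was 2600 bp long (quartiles 2000 and 3400 bp), beside 2600 bp (2000 and 3200 bp) among the 11995 islands that overlapped none. Its fold over input, which is ChIP reads over input reads after the authors' library scaling, had a median of 1.44 (quartiles 1.34 and 1.63), beside 1.45 (1.34 and 1.63). Input density, the number of input reads per kb of island, had a median of 32.6 beside 32.8. The median overlapping island rested on 122 ChIP and 83 input reads, beside 119 and 82 in the others. These medians and quartiles lay close together.

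By class, the median native fold was 1.45 in islands overlapping spermatocytes only, 1.44 in those overlapping round spermatids only and 1.46 in those overlapping both. Their median lengths were all 2600 bp. The classes differed in the upper tail of length. The longest twentieth of the islands overlapping round spermatids only began at 5840 bp, that of the islands overlapping spermatocytes only at 5030 bp and that of the islands overlapping none at 4800 bp.

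**Figure D1:**
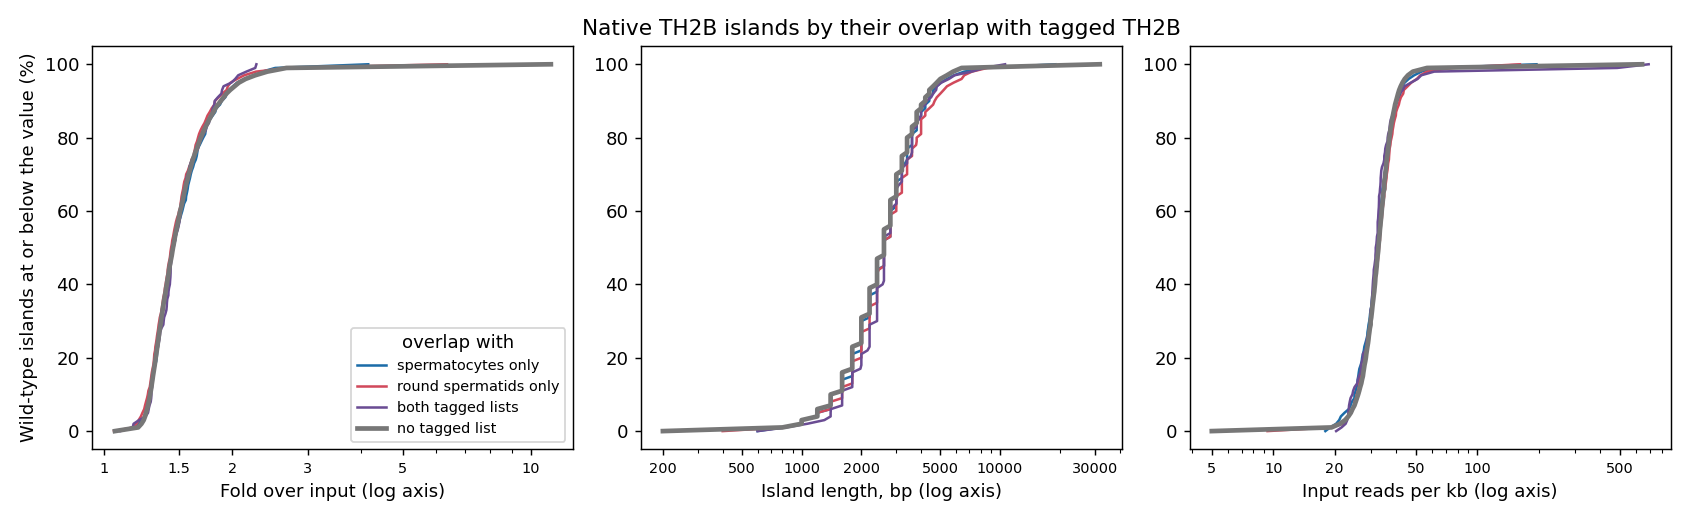
Cumulative share (%) of native TH2B islands on the autosomes by fold over input, island length in bp and input reads per kb, all on log axes, in 4 classes of overlap with tagged TH2B. The median folds of the 4 classes run from 1.44 to 1.46, and the length curves part above 3000 bp.

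Native folds of 2 and above were no more frequent among the overlapping islands. They were found in 73 of the 1373 (5.32%, 4.19 to 6.64), beside 6.25% of all autosomal native islands and 6.35% (5.92 to 6.80) of those overlapping none. The counts were 34 of 558 for spermatocytes only, 33 of 697 for round spermatids only and 6 of 118 for both. These shares, 6.09%, 4.73% and 5.08%, lie near the background. Reads summed over islands gave a fold of 1.4 in the overlapping islands and 1.44 in the others, a gap that summed reads weight towards the longest islands.

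Native islands of great length, very low fold or high input density were overlapped more often than the rest. Among the 207 native islands over 6000 bp, 50 overlapped a tagged island (24.2%, 18.5 to 30.6), beside 8.82% (7.39 to 10.4) of islands up to 1400 bp and 10.05% (9.24 to 10.9) of those from 2200 to 3000 bp. Each class of length had a higher share than the class before it, with 11.4% from 4200 to 6000 bp. A longer island meets another more easily, so length is tied to the rule. Among the 148 native islands with a fold under 1.2, 34 overlapped (23.0%, 16.5 to 30.6). All 148 together had a median length of 6600 bp. From a fold of 1.2 upwards the share lay between 8.58% and 10.6% in every class, with no order by fold. Of the 66 native islands with a fold of 3 or more, 7 overlapped (10.6%, 4.37 to 20.6). At an input density of 1.5 to 2 times the autosomal median 39 of 188 overlapped (20.7%, 15.2 to 27.2). At 2 times or more 16 of 88 did (18.2%, 10.8 to 27.8), beside 9.64% at 1 to 1.5 times and 10.2% at 0.75 to 1 times. Under 0.75 times it was 12.1% (103 of 851, 9.99 to 14.5), so the share did not simply rise with input density.

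Within classes of length, the folds of overlapping and other islands stayed close. Among islands from 2200 to 3000 bp the median fold was 1.47 in the overlapping and 1.45 in the others, and among those from 3200 to 4000 bp it was 1.38 and 1.37. The widest gap was in islands up to 1400 bp, where the overlapping islands had the lower median, 1.64 against 1.74. Their input density was higher there, 39.3 against 36.4 reads per kb, and its part in the lower fold was not tested.

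Overlapping islands lay where tagged islands were dense. A native island placed anywhere would meet a tagged one more often where those are dense, so these values describe the lists and support nothing further. Tagged islands were counted on both sides at 50 to 500 kb from each native island, a range that leaves out the overlapped islands themselves but comes from the same libraries that chose the members. The median was 16 tagged islands around an overlapping native island (quartiles 11 and 22) and 7 around the others (2 and 14). Islands overlapping spermatocytes only had a median of 17, those overlapping round spermatids only 16 and those overlapping both 18. Other native islands were not denser there, with a median of 5 around the overlapping islands and 6 around the others.

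With 0 to 4 tagged islands in these flanks, 86 of 4675 native islands overlapped one (1.84%, 1.47 to 2.27). The share was 7.20% (6.27 to 8.22) with 5 to 9, 12.5% (11.2 to 14) with 10 to 14, 19.7% (17.8 to 21.6) with 15 to 19 and 22.8% (20.7 to 24.9) with 20 to 29. With 30 or more it was 28.8% (24.1 to 33.9), or 99 of 344 islands. Each class of density thus had a higher share than the class before it, while the median native fold of the classes ran only from 1.44 to 1.5. Both tagged lists took part. Overlap with spermatocytes went from 0.706% in the sparsest to 16.9% in the densest class, and overlap with round spermatids from 1.28% to 16.9%.

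**Figure D2:**
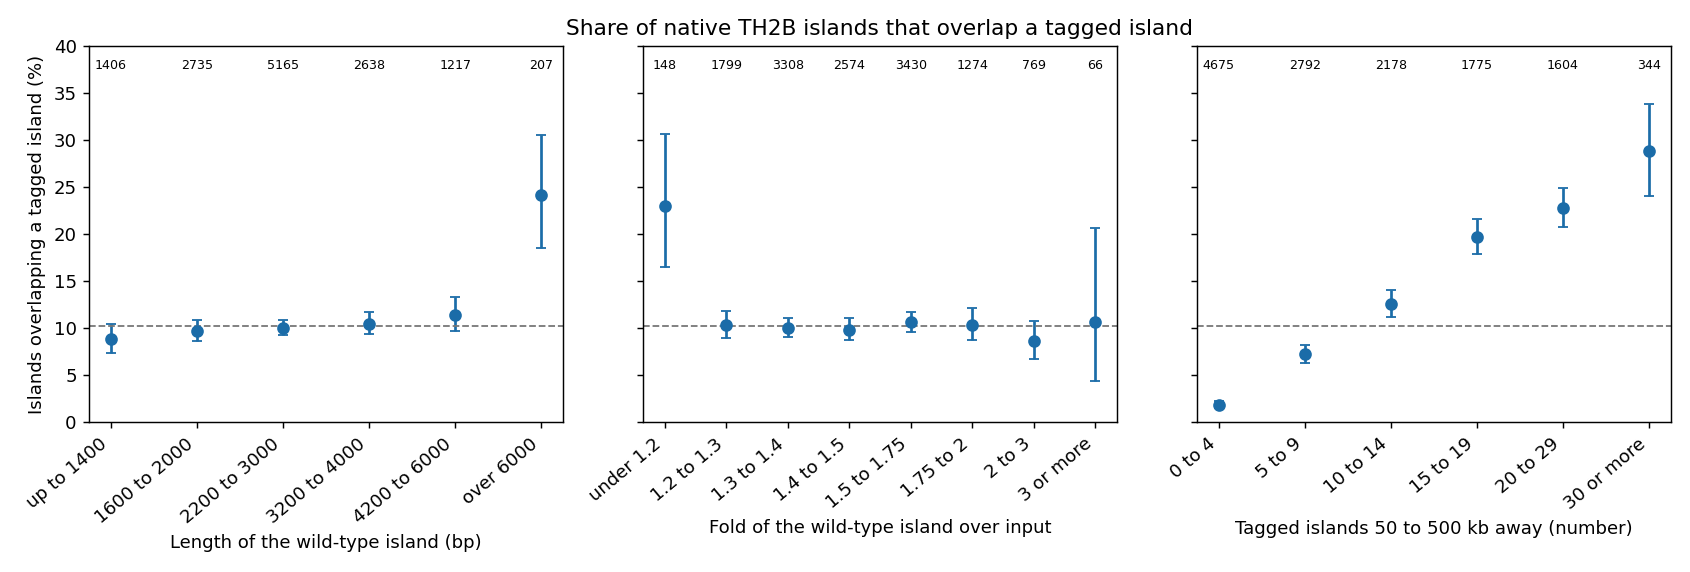
Share (%) of native TH2B islands that overlap a tagged island, by island length in bp, by fold over input and by the number of tagged islands 50 to 500 kb away. Bars are exact 95% intervals of counting error, the figures at the top are numbers of native islands, and the dashed line is the share over all of them, 10.3%. The share rises with length, from 8.82% up to 1400 bp to 11.4% from 4200 to 6000 bp and 24.2% above. It is flat from a fold of 1.2 upwards and goes from 1.84% to 28.8% with the density of tagged islands nearby.

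The share also differed between single autosomes. The share of native islands that overlapped ran from 6.57% on chromosome 11 (57 of 868, 5.01 to 8.42) and 7.40% on chromosome 9 to 13.1% on chromosome 16 and 14.7% on chromosome 3 (93 of 632, 12.04 to 17.7). Tagged islands covered 3.41% of chromosome 11 and 3.58% of chromosome 9, beside 5.02% of chromosome 16 and 5.35% of chromosome 3. Across the 19 autosomes the share of overlapping islands and the covered share had a Pearson r of 0.645 and a Spearman rho of 0.733, given as a description because both come from the same tagged lists. Chromosome 1 had the largest covered share, 6.72%, and an overlap of 11.8%. Without it, r was 0.726 over 18 autosomes. Native islands per Mb, on which the share is based, went the other way, with 7.12 on chromosome 11 and 3.96 on chromosome 3. Overlapping islands per Mb were 0.468 and 0.583. Across the 19 autosomes native islands per Mb had an r of -0.594 with the share and of -0.608 with tagged islands per Mb. Tagged and native density thus cannot be told apart here.

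Among islands at like density, the intervals of all 19 autosomes overlapped one another. Among native islands with 10 to 19 tagged islands in the flanks, 15.7% overlapped in all (622 of 3953, 14.6 to 16.9). Chromosome 11 had 10.3% of such islands overlapping (20 of 195, 6.38 to 15.4) and chromosome 3 had 18.6% (44 of 237, 13.8 to 24.1). The highest were chromosome 12 with 20.6% (42 of 204, 15.3 to 26.8) and chromosome 7 with 20.3% (43 of 212, 15.1 to 26.3), the latter having 9.26% over all its native islands. These chromosomes were named after their values were seen.

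**Figure D3:**
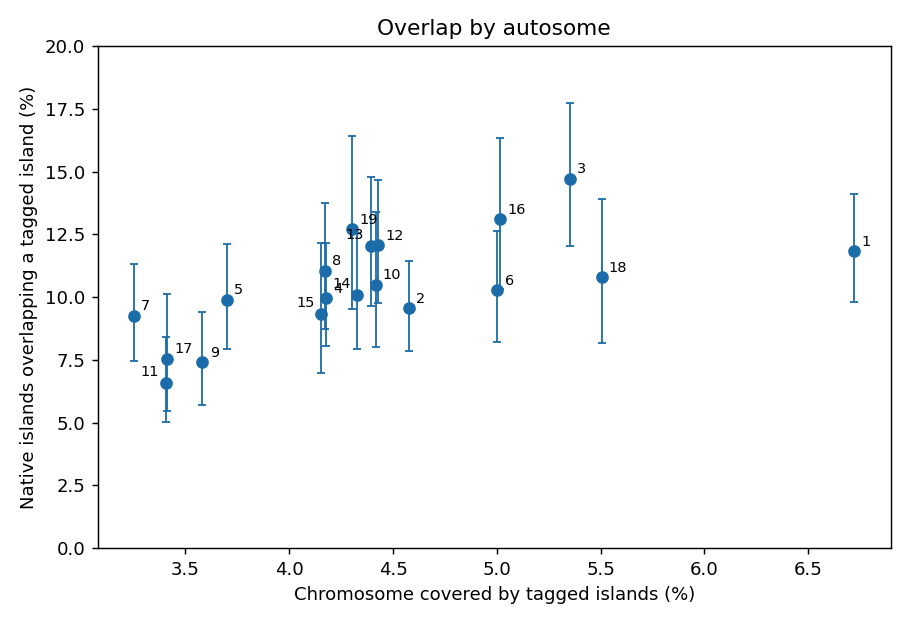
Share (%) of native TH2B islands that overlap a tagged island on each autosome, against the share (%) of that chromosome covered by tagged islands of either cell type. Points carry the chromosome's number and bars are exact 95% intervals of counting error. Chromosome 11 is lowest at 6.57% and chromosome 3 highest at 14.7%.

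Overlapping islands were more frequent near the starts of the mapped chromosomes, which in the mouse are the centromeric ends, than near their distal ends. In the first 10 Mb of each autosome's span of islands 134 of 971 native islands overlapped (13.8%, 11.7 to 16.1), and in the last 5 Mb 44 of 667 did (6.60%, 4.83 to 8.75), beside 10.2% (9.65 to 10.7) in between. The median number of tagged islands in the flanks was 11, 4 and 8 in these places. Among islands with 10 to 19 tagged islands in the flanks the shares were 17.2% (62 of 360), 16.3% (21 of 129) and 15.6% (539 of 3464).

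Most overlapping islands had no other one within 100 kb. No spacing of other islands was set beside these values, so they do not show whether the overlapping islands cluster. The median distance to the next overlapping island was 323.8 kb (quartiles 103.4 and 962.2 kb), and 333 of the 1373 (24.3%) had another within 100 kb. Of 2239 windows of 1 Mb that held a native island, 899 held an overlapping one, and 595 of these held only 1. In 15 windows there were 5 or more, 81 islands in all (5.90%).

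The fullest window was chromosome 5 from 95 to 96 Mb, with 7 overlapping islands among 15 native ones. The window before it, from 94 to 95 Mb, held 6 among 17. In both windows the overlaps were mostly with round spermatids, 5 of 7 and 4 of 6 being with that list only, and round spermatid islands outnumbered spermatocyte islands there, 12 to 5 and 13 to 4. On chromosome 4 the windows from 145 to 146 and from 146 to 147 Mb held 6 of 21 and 5 of 33 native islands, and there 5 of 6 and 4 of 5 overlapped spermatocytes only. Spermatocyte islands outnumbered those of round spermatids in these windows, 13 to 7 and 8 to 5. Chromosome 12 from 36 to 37 Mb (6 of 10 native islands) and chromosome 19 from 60 to 61 Mb (6 of 17) were the other windows with 6. The islands of chromosome 5 from 95 to 96 Mb had a median input density of 52.6 reads per kb and a median fold of 1.2. Those of chromosome 12 had 27.4 and 1.47, so windows rich in overlap were not of one kind.

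On the tagged side, the islands that met a native island were longer and had lower folds than the rest of their lists. In spermatocytes the 673 met islands had a median length of 4000 bp and a median fold of 1.45, beside 3600 bp and 1.51 in the 14283 others. In round spermatids the 808 met islands had 3800 bp and 1.41, beside 3400 bp and 1.47 in the 15639 others. Folds of 2 and above occurred in 42 of the met spermatocyte islands (6.24%, 4.53 to 8.34), beside 9.10% of all autosomal spermatocyte islands. They occurred in 25 of the met round spermatid islands (3.09%, 2.01 to 4.53), beside 6.60% of all autosomal round spermatid islands.

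At like length the met islands also had the lower median fold in all 4 classes of length in both lists. Over all lengths their median input density was the higher, 23.5 against 22.5 reads per kb in spermatocytes and 26.1 against 25 in round spermatids. Its part in the lower fold was not tested. Among spermatocyte islands from 3600 to 4800 bp the median fold was 1.43 in the met and 1.48 in the others, and 3.96% beside 4.02% reached a fold of 2. Among round spermatid islands up to 2400 bp the medians were 1.56 and 1.64, and 6.82% (9 of 132, 3.16 to 12.5) beside 18.8% (17.5 to 20.1) reached a fold of 2. In round spermatid islands from 3600 to 4800 bp the order of these shares was the opposite, 3.11% (1.35 to 6.04) beside 2.10%.

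Overlaps were mostly partial. There were 681 pairs of a native and a spermatocyte island and 824 pairs with round spermatids, since some islands met more than 1 partner. The median shared stretch was 1800 bp in both, which was 80.0% of the native island and 46.7% of the tagged island in spermatocytes, and 75% and 46.4% in round spermatids. The native island lay wholly inside a larger tagged one in 35.8% of pairs with spermatocytes (32.2 to 39.6) and in 31.2% with round spermatids (28.0 to 34.5). A tagged island lay wholly inside a larger native one in 7.49% and 8.37%. Only 5 and 7 pairs had the same start and end. The centres of the paired islands were a median of 1200 bp apart in both lists. Shared stretches came to 3.59% of the bases of native islands for spermatocytes and 4.45% for round spermatids.

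At the edge of the rule, islands just inside and just outside had like folds. The shortest shared stretch was 200 bp, 1 window of the caller, and 56 native islands had that as their longest overlap, with a median fold of 1.46. Just outside, 38 native islands touched a tagged island without sharing a base (median fold 1.46) and 22 lay 200 bp away (1.5). In all, 261 islands outside the rule lay within 1000 bp of a tagged island. Over all 11995 islands outside the rule the median gap was 57.6 kb, and 4586 of them lay more than 100 kb from any tagged island.

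**Figure D4:**
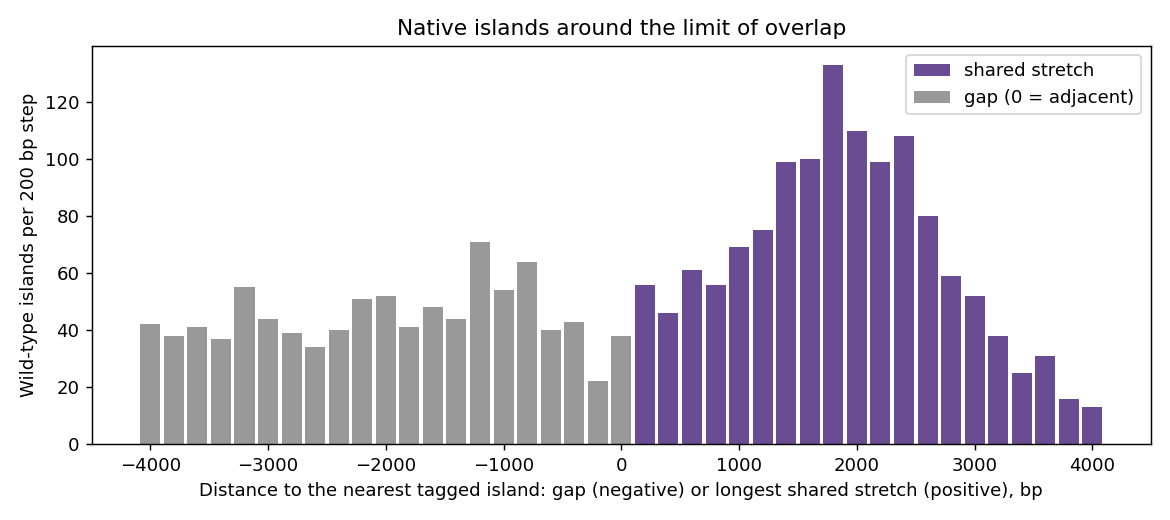
Number of native TH2B islands per step of 200 bp by their distance to the nearest tagged island. Negative values are gaps in bp, 0 is an adjacent island, and positive values are the longest stretch shared with a tagged island, which cannot exceed the length of either island. Counts lie between 22 and 71 at gaps up to 4000 bp and peak at 133 for a shared stretch of 1800 bp.

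The measured fold of a native island told little about that of its tagged partner. Across the pairs the log2 folds had a Pearson r of 0.165 and a Spearman rho of 0.110 in spermatocytes, and 0.0655 and 0.0597 in round spermatids. These describe 681 and 824 pairs whose members all passed the same kind of call. Single folds are imprecise, since the median overlapping native island rested on 122 ChIP and 83 input reads. The part of this counting error in the low r was not tested. Read-rich pairs, in which either island had more than 2 times the median input density of its list, numbered 20 and 30. Without them r was 0.134 and 0.00219. Input densities had r values of 0.525 and 0.571 in all pairs, and 0.132 and 0.157 without the read-rich ones. The Spearman rho of input density was 0.160 and 0.190 in all pairs, and 0.0962 and 0.0967 without the read-rich ones. The higher r values thus rested largely on 20 and 30 pairs. Those pairs were picked by input density, so leaving them out favours a lower r.

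Pairs with a tagged fold of 2 or more had native partners with a median fold of 1.52 in spermatocytes (42 pairs) and 1.5 in round spermatids (25 pairs). Pairs with a tagged fold under 1.3 had native medians of 1.42 (82 pairs) and 1.41 (182 pairs). The native fold was the higher of the pair in 52.1% of spermatocyte pairs (48.3 to 55.9) and 54.0% of round spermatid pairs (50.5 to 57.4). Neither list was thus the higher one throughout. Where the native island was wholly covered (medians of 2200 against 4800 bp), its median fold was the higher. It was 1.52 against 1.41 in spermatocytes and 1.48 against 1.35 in round spermatids. Where 25 to 75% of it was covered, it was the lower, 1.39 against 1.49 and 1.41 against 1.43. Median lengths in that class were 3200 against 3600 bp and 3200 against 3400 bp. Where 75 to under 100% was covered, the folds were 1.46 against 1.45 and 1.42 against 1.42. The order of the folds thus changed with the share covered and is not read as a contrast of the proteins. The part of island length in it was not tested.

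**Figure D5:**
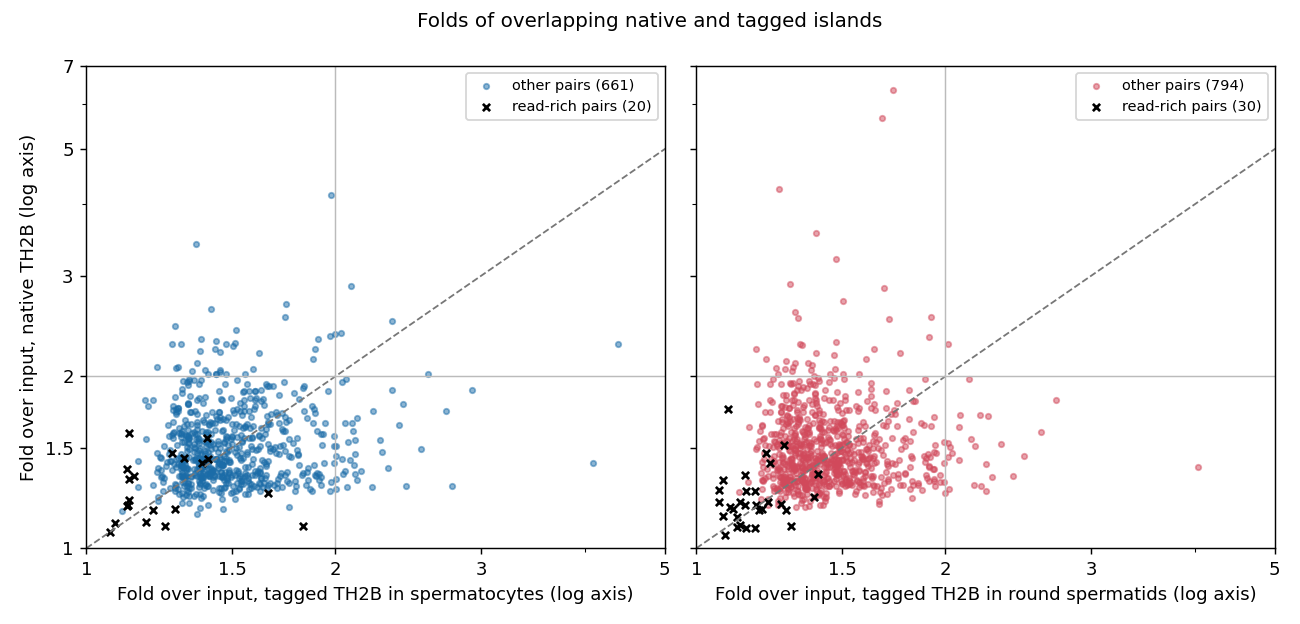
Fold over input of native TH2B (vertical) against that of tagged TH2B (horizontal) in 681 pairs with spermatocyte islands and 824 pairs with round spermatid islands, on log axes. Crosses are read-rich pairs, the dashed line marks equal folds and the grey lines a fold of 2. The cloud has no clear slope, and 6 and 1 pairs lie at a fold of 2 or more in both.

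Taken pair by pair, without summing several partners of 1 native island, both folds reached 2 in only 7 pairs, 6 of them with spermatocytes. These were picked out after their values were seen. With the reads of all partners summed within each list and every list met counted, 4 native islands had folds of at least 2 throughout. At chr7:94974001-94976000 the native island had 89 ChIP and 36 input reads (fold 2.50, 1.68 to 3.79) and the spermatocyte island 72 and 36 (2.34, 1.55 to 3.60), with 1600 bp shared. At chr19:11539601-11542600 the native island had 150 and 64 reads (2.37, 1.76 to 3.23) and the spermatocyte island 111 and 65 (2.0, 1.46 to 2.76), with 2000 bp shared. In both pairs the shared stretch covered most of the native island, 80.0% and 66.7% of it, and on chromosome 19 it was 50% of the tagged one. The short native island chr6:109716401-109717000, with 54 and 19 reads (2.87, 1.68 to 5.13), lay wholly inside a spermatocyte island with 82 and 46 reads (2.09, 1.44 to 3.06).

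The other 3 pairs with spermatocytes shared little. At chr1:63399201-63401600 (native fold 2.38) and chr12:90933201-90936400 (2.02) the shared stretch was 400 bp, and the spermatocyte folds were 2.03 and 2.58. The chromosome 12 island met a second spermatocyte island over 1200 bp, with a fold of 1.48, and the 2 together had 151 ChIP and 98 input reads (1.80). At chr8:105192401-105195200 (2.28) 1 partner was a single window of 200 bp with 30 ChIP and 8 input reads, whose fold of 4.39 has an interval from 1.97 to 11.1. This native island also shared 1800 bp with another spermatocyte island of fold 1.47, and the 2 together had 108 and 70 reads (1.81). The only such pair with round spermatids was chr6:43825601-43827600, with 108 and 48 native reads (2.27, 1.60 to 3.27) and 177 and 93 reads in round spermatids (2.02, 1.56 to 2.62). That native island also met a spermatocyte island, which had a fold of 1.3. Just short of a fold of 2 in native TH2B was chr19:12822801-12823400, with 49 and 25 native reads (1.98, 1.2 to 3.35), inside a spermatocyte island with 88 and 50 reads (2.06, 1.44 to 2.98).

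The tagged partners of the native islands of highest fold had lower folds than the native islands themselves, which a ranking by native fold favours. Among islands with at least 50 ChIP reads that overlapped round spermatids only, the highest was chr4:50081001-50082600 with 84 ChIP and 15 input reads (5.66, 3.24 to 10.6). Its round spermatid partner had 76 and 48 reads (1.68, 1.15 to 2.46). It was followed by chr14:13320801-13322200 (native fold 4.26, partner 1.26), chr7:27235001-27235600 (3.57 and 1.4), chr8:64569801-64571000 (3.21 and 1.47) and chr17:20976801-20978800 (2.90 and 1.3). All 5 partners were thus below a fold of 2.

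Among those that overlapped spermatocytes only, chr17:76850401-76851400 came first with 74 and 18 reads (4.16, 2.46 to 7.39), and its spermatocyte partner had 113 and 67 reads (1.98, 1.45 to 2.71). Next were chr5:78491201-78492000 (native fold 3.41, partner 1.36), the chromosome 6 island inside its partner described above, chr7:113401201-113402200 (2.68 and 1.74) and chr14:96250201-96251600 (2.62 and 1.42). The input of these islands was low, from 18 to 27 reads, which makes their folds imprecise. Among islands in both, the highest native folds were lower, led by chr1:166026401-166029200 with 135 and 60 reads (2.27, 1.67 to 3.14) and partners of 1.27 in spermatocytes and 1.33 in round spermatids. The next were the chromosome 6 island with a round spermatid fold of 2.02, chr17:16207001-16209000 (2.19), chr13:33353601-33356600 (2.08) and chr5:40103801-40105400 (2.05).

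The 118 native islands that met both tagged lists were places where the tagged lists mostly met each other. In 108 of them (91.5%) a spermatocyte and a round spermatid island overlapped, and in those 108 all 3 lists shared a stretch, with a median of 1200 bp. Tagged islands that meet the same native island lie close together and so overlap easily. This share is therefore tied to the rule. A native island with a spermatocyte partner also had a round spermatid partner in 118 of 676 cases (17.5%, 14.7 to 20.5), beside 697 of 12692 native islands without a spermatocyte partner (5.49%, 5.10 to 5.90). The tagged lists overlapped each other about as often elsewhere. Of spermatocyte islands with a native island 19.6% (132 of 673, 16.7 to 22.8) overlapped a round spermatid island, beside 16.4% (15.8 to 17.0) of those without. For round spermatid islands the shares were 17.0% (137 of 808, 14.4 to 19.7) and 15% (14.4 to 15.6).

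In these 118 triples the median fold was 1.46 for native TH2B, 1.4 in spermatocytes and 1.36 in round spermatids. The native fold was the highest of the 3 in 55 triples, that of spermatocytes in 34 and that of round spermatids in 29. Island length was not matched in these counts. No triple reached a fold of 2 in all lists, and 5 reached 1.5. Ranked by their lowest fold, the first was chr5:7913201-7915000, with 104 ChIP and 58 input reads of native TH2B (1.81, 1.3 to 2.54), 132 and 95 in spermatocytes (1.63, 1.24 to 2.14) and 120 and 79 in round spermatids (1.61, 1.2 to 2.17). It was followed by chr4:65525001-65527200 with folds of 1.89, 1.60 and 1.69, chr13:45876601-45879000 with 1.63, 1.56 and 2.07, chr2:174132801-174135400 with 1.61, 1.51 and 1.57, and chr10:52863401-52866000 with 1.65, 2.39 and 1.51. Their native input densities, 23.6 to 32.2 reads per kb, were below the median of the native list, 32.7.

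A small group of overlapping islands was very long or very rich in input reads. Input density above 2 times the autosomal median, 65.5 reads per kb, was found in 16 of the 1373 overlapping islands (1.17%, 0.668 to 1.89) and in 71 of the 11995 others (0.592%, 0.463 to 0.746). Many input reads per kb can mark sequence present in more copies than the reference holds. That was not tested here. The longest overlapping island was chr5:94345801-94373800, of 28000 bp, with 2902 ChIP and 2778 input reads (1.06, 1.0 to 1.11), and its round spermatid partner shared 24000 bp of it with a fold of 1.08. It was followed by chr4:146790201-146809200 (native fold 1.07, spermatocyte partner 1.07), chr16:3231401-3250400 (1.09, round spermatid partners 1.16), chr16:3251801-3269400 (1.26 and 1.16) and chr14:45314401-45328400 (1.16, spermatocyte partner 1.10). Their folds were all below the median of the native list. At chr13:12978601-12989200 the native island and its spermatocyte partner had the same start and end, with folds of 1.17 and 1.28, and a round spermatid island with a fold of 1.11 covered all 10600 bp as well.

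The densest input lay at chr9:24345201-24346800, with 691 input reads per kb and 1277 ChIP beside 1106 input reads (1.17, 1.08 to 1.27). This island met both tagged lists, with folds of 1.2 and 1.28. At chr4:64157001-64159200 the input density was 571 reads per kb, with folds of 1.09 in native TH2B, 1.27 in spermatocytes and 1.3 in round spermatids. At chr14:20451601-20456600 it was 195 reads per kb, with a native fold of 1.11 and a spermatocyte fold of 1.18. The long islands on chromosomes 4 and 16 named above were next. High overlap of long and low-fold islands was seen without such places too. Among islands at or below the limit of input density, 42 of 179 over 6000 bp overlapped (23.5%, 17.5 to 30.4) and 21 of 105 with a fold under 1.2 did (interval of the share 12.8% to 28.9%).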

How the data were processed

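Island lists of 3 TH2B ChIP-seq libraries were used, 1 per group. Islands were called with SICER on mm9, per the submitters' processing notes, and the list names give the window (200 bp) and gap (600 bp). The aligner and read filters are not stated in the sources used. As deposited, an island has whole-number counts of ChIP and control reads, a p-value, a fold (ratio) over control and an FDR below 0.01. The columns carry no header and were identified by their values. Input of the same cells was assumed to be the control, which the lists do not state. By its labels the wild-type input carries the TH2B antibody, and its title was followed in taking it as input. The deposited fold equalled the ratio of counts divided by 0.854 (spermatocytes), 0.944 (round spermatids) or 0.989 (wild type). Ends were brought to 1 convention.

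Overlap was counted with Python 3.11.15, pandas 2.3.3 and numpy 2.4.6, checked with bedtools 2.31.1 and tested on simulated lists with planted overlaps. Intervals are Clopper-Pearson (scipy 1.17.1), plots used matplotlib 3.10.9 and chromosome lengths came from GenomeInfoDb 1.38.1. Reads of several partners in a list were summed. Regions were named by rank: the 5 highest folds with at least 50 ChIP reads in each class, the 5 highest by lowest fold, the 5 longest, the 5 densest in input, and windows of 1 Mb with at least 5 members. The members and lists were chosen with earlier results of these data known. Flank counts, length classes of tagged islands and comparisons within a band of flank density were added after the data were seen.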

Additional observations from a re-analysis of the deposited data

Results flagged for a closer look

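Islands on the sex chromosomes lay outside the comparison, and native islands there overlapped tagged ones more often than on the autosomes. On X and Y together 60 of 214 native islands overlapped (28.0%, 22.1 to 34.6), beside 10.3% on the autosomes. On X it was 44 of 183 (24.0%, 18.0 to 30.9) and on Y 16 of 31 (51.6%, 33.1 to 69.8). Tagged islands covered 2.41% of X and 4.26% of Y, beside 4.48% of the autosomes. The overlapping islands had median input densities of 55.3 reads per kb on X and 91.9 on Y, beside 32.6 on the autosomes, and median folds of 1.4 and 1.22. The islands that overlapped none had higher input densities on each, 60 reads per kb on X and 115 on Y. Over X and Y together the order was the opposite, 62.5 in the overlapping islands and 62.1 in the others. On the autosomes, native islands at 1.5 to 2 times the median input density overlapped in 20.7%, and those at 2 times or more in 18.2%. The difference between sex chromosomes and autosomes was not tested, nor was the part of input density in it.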

How the results depend on the processing

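Of 23 alternatives, all planned, 11 left a value inside its counting or order-statistic interval and 12 moved it. The share of overlapping islands, 10.3%, was 4.50% with 50% reciprocal overlap and 4.63% at an FDR of at most 0.0001. It was 0.838% at a fold of at least 2 (7 of 835 islands) and 8.25% with at least 100 ChIP reads. These settings thin all 3 lists or ask for more shared bases. Native islands at an FDR of at most 0.0001 overlapped the full tagged lists in 10.5% (626 of 5960). The ratio of median length, 1, was 1.08 with the stricter FDR and 1.5 among islands of fold 2 or more. The ratio of median fold, 0.994, was 0.980 with reciprocal overlap, 1.06 among islands of fold 2 or more and 0.971 from summed reads. The ratio of median input density, 0.997, was 0.976 with reciprocal overlap, 0.980 with the stricter FDR and 0.871 among islands of fold 2 or more. The values at a fold of at least 2 rest on 7 islands. The cause of these moves was not tested. No paired analysis was possible because each group had 1 library. Depth outside the islands was not used here, so a place without an island may still hold TH2B.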
